A study of Mus musculus with 6 samples.

Results

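The enzymes of the pentose phosphate pathway were examined in the kidney of 24-month-old mice, with the transcripts of transketolase described one by one. The 8 genes are G6pdx, Pgls, Pgd and H6pd of the oxidative branch and Rpia, Rpe, Tkt and Taldo1 of the non-oxidative branch, and they were taken by gene name from the 13696 genes of the deposited tables. They account for 16 of the 27486 listed transcripts. All libraries came from kidney total RNA, 3 from wild-type (WT) mice and 3 labelled fat-1 knockin (fat-1 below). The fat-1 gene of nematodes encodes an enzyme that mammals lack, which makes omega-3 out of omega-6 fatty acids, and the study asked what it does in the aged kidney. The promoter of the inserted gene, its site, and the sex, strain and number of animals are not given in the labels used here, and the inserted gene was not analysed here. Values are FPKM, which counts the sequenced fragments of a transcript relative to its length and to the size of the library. The genes were chosen by measured values of these same libraries, namely the FPKM of the Tkt transcripts in WT against fat-1. Differences between the groups in these 8 genes are therefore a description. Where they carry intervals, or are counted from the fit over all genes, these stand beside the background and are no independent test.

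The pentose phosphate pathway branches off glycolysis at glucose 6-phosphate. Its oxidative branch yields NADPH, which serves lipid synthesis and the glutathione system, and its non-oxidative branch trades carbons between sugar phosphates and supplies ribose 5-phosphate for nucleotides. Transketolase, which needs thiamine diphosphate, and transaldolase link the pentoses back to glycolysis. H6pd carries out the opening oxidative steps inside the endoplasmic reticulum, where its NADPH serves the type 1 11-beta-hydroxysteroid dehydrogenase, Hsd11b1.

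WT replicate 1 stood apart from the other WT libraries. Its log2 FPKM correlated with theirs at Pearson r = 0.938 and 0.940 across genes, against 0.972 between them. Macrophage markers were higher in it, with C1qa at 144.8 FPKM against 20.02 and 25.4 FPKM, and Adgre1, which encodes F4/80, at 11.3 FPKM against 1.302 and 1.382 FPKM in WT replicates 2 and 3. Over the 5 macrophage markers the summed level ranged from 62.5 to 337 FPKM in WT and from 64.1 to 112 FPKM in fat-1. The Tkt and Pgls transcript differences below are given with and without this library, and the part of these markers in them was not tested.

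For Tkt, 2 transcripts were listed, and they are annotated with different coding sequences. Tkt (ENSMUSG00000021957.7) lies at chr14:30549131-30574720 on the plus strand of mm10. In the GENCODE M21 annotation of that build, Tkt-201 has 14 exons and 3223 bases, of which 1869 code for 623 residues. Tkt-207 has 13 exons and 1619 bases, of which 1504 are coding, and its coding start is annotated as incomplete. The annotation gives Tkt-201 a transcript support level of 1, the best grade, and gives none for Tkt-207. The 1619 bases of Tkt-207 all lie within Tkt-201, which has 1604 bases that Tkt-207 lacks. Most of that surplus is at the ends, since the last exon has 1384 bases in Tkt-201 and 288 in Tkt-207, and the first has 250 and 24. Inside the coding part, Tkt-207 leaves out 282 bases in frame, which are codons 179 to 272 of Tkt-201. These are the last 95 bases of exon 5, the 119 bases of exon 6 and the first 68 bases of exon 7. In the first exon, 107 bases are coding in Tkt-201 and 24 in Tkt-207, whose coding start is incomplete. The absent stretch is shown because it is the internal coding part by which the transcripts differ, with its first and last 2 bases in capitals (exonic parts of chr14:30565585-30568231, plus strand, 5′ to 3′).
Tkt-201, stretch absent from Tkt-207: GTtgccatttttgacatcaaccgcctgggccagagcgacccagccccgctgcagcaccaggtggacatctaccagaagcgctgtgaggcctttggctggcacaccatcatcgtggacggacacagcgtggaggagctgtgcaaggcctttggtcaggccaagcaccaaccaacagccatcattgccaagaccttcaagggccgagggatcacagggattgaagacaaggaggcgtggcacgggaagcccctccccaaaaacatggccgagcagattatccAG
The interval that Tkt-207 leaves out thus starts with GT and ends with AG on the genome, the letters found at the ends of most mouse introns. Tkt-207 joins the bases on either side, at chr14:30565584-30568232, and the capitals below mark the last base before this junction and the first base after it.
Tkt-207, exons 5 and 6: aagctggacaacctCGagatttacagccag

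**Figure D1:**
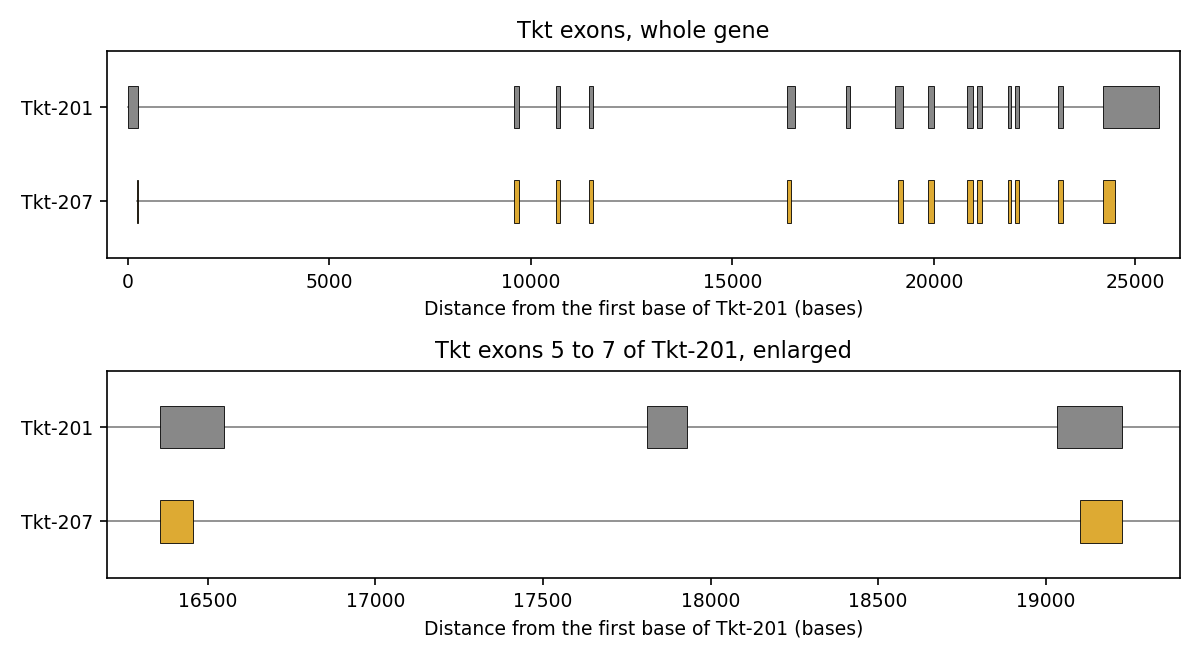
Exons of Tkt-201 (14 exons, 3223 bases) and Tkt-207 (13 exons, 1619 bases), drawn to scale as boxes against the distance in bases from the first base of Tkt-201, whole (top) and enlarged over exons 5 to 7 (bottom). The internal coding part of Tkt-201 that Tkt-207 lacks falls in exons 5 to 7, and Tkt-201 has the longer last exon, 1384 against 288 bases.

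Tkt-207 was abundant in the 3 WT libraries and was listed at 0 in the 3 fat-1 libraries. It measured 24.2, 18.8 and 27.5 FPKM in WT replicates 1, 2 and 3. Every WT library thus held it well above the 1 FPKM used as a filter, and no fat-1 library listed any. Whether a listed 0 is an absence or a failed assignment of reads was not tested. Tkt-201 measured 17.1, 15.1 and 8.54 FPKM in WT replicates 1 to 3, and 33.9, 26.4 and 21.02 FPKM in fat-1 replicates 1 to 3. All fat-1 libraries were above all WT libraries in Tkt-201. Its mean was 13.6 ± 4.46 FPKM (SD, n = 3) for WT and 27.1 ± 6.47 FPKM (SD, n = 3) for fat-1, a ratio of 2.00. The difference was 0.98 ± 0.30 (SE) on the log2(FPKM + 1) scale, with a 95% interval from 0.25 to 1.70, and 1.16 without WT replicate 1.

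As a share of the summed Tkt FPKM, Tkt-207 made up 58.6%, 55.5% and 76.3% in WT replicates 1, 2 and 3, a mean of 63.5% ± 11.2 (SD, n = 3). Tkt-201 made up the remaining 41.4%, 44.5% and 23.7%, and 100% of each fat-1 library. The most abundant Tkt transcript was therefore Tkt-207 in all WT libraries and Tkt-201 in all fat-1 libraries. Among the 6 pathway genes with 2 or more listed transcripts, 1, Tkt, had such an exchange, and 1, again Tkt, had transcript shares that did not overlap between the groups, beside 20.1% of genes with 2 or more transcripts. Over all 6499 tested genes with 2 or more listed transcripts, 24 genes (0.369%) had one. Of the 27486 listed transcripts, 6 (0.0218%) were at 0 in all fat-1 libraries with at least 1 FPKM in all WT libraries, Tkt-207 among them, and 5 (0.0182%) had the opposite pattern. These shares describe how rare the pattern was in the tables, and Tkt was chosen for it.

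**Figure D2:**
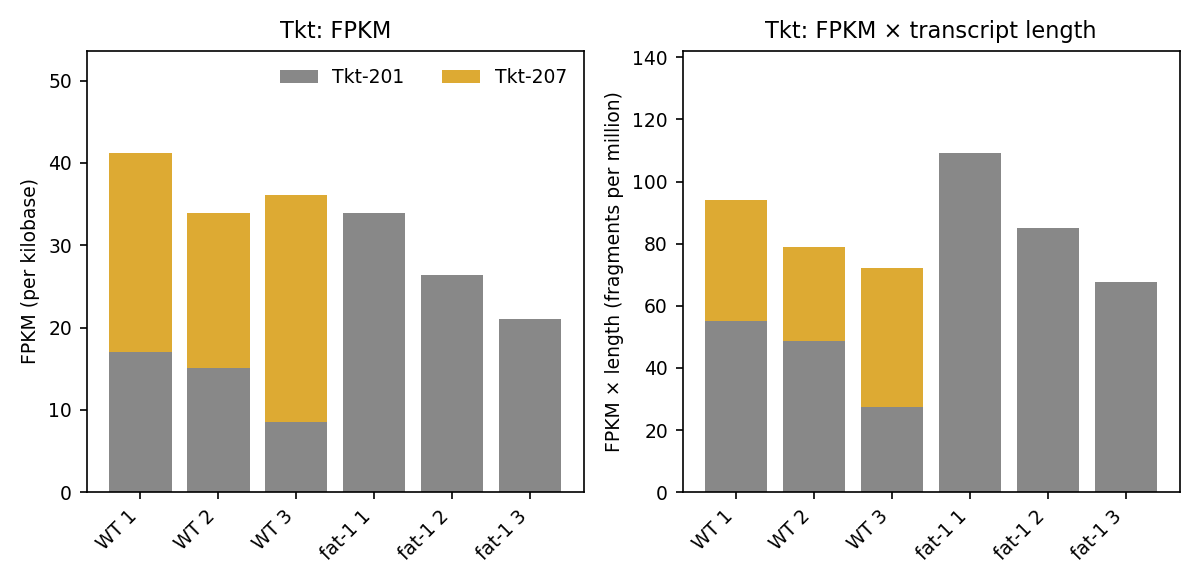
Stacked bars of Tkt-201 (grey) and Tkt-207 (gold) in each of the 6 libraries, as FPKM (left) and as FPKM times transcript length in kilobases (right). Tkt-207 lies between 18.8 and 27.5 FPKM in WT and is listed at 0 in fat-1, and Tkt-201 is higher in all 3 fat-1 libraries.

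The sign of the difference in total Tkt depended on the measure. In the annotation Tkt-207 is the shorter transcript and FPKM is per length. Summed over both transcripts, Tkt measured 41.3, 33.9 and 36.1 FPKM in WT replicates 1 to 3 and 33.9, 26.4 and 21.02 FPKM in fat-1 replicates 1 to 3. The groups met at their edges, with WT replicate 2 at 33.86 FPKM and fat-1 replicate 1 at 33.91 FPKM. The mean was 37.1 ± 3.80 FPKM (SD, n = 3) for WT and 27.1 ± 6.47 FPKM (SD, n = 3) for fat-1, and the log2 difference was -0.46 ± 0.18 (SE), with a 95% interval from -0.90 to -0.02, and -0.38 without WT replicate 1. Multiplying each FPKM by the transcript's length in kilobases gives a length-weighted FPKM, which follows the number of fragments. This scale was added after seeing the data. On that scale Tkt measured 94.2, 79.0 and 72.1 in WT and 109.3, 85.2 and 67.7 in fat-1 replicates 1 to 3. Those ranges overlapped throughout, at 81.8 ± 11.3 (SD, n = 3) against 87.4 ± 20.9 (SD, n = 3), and the log2 difference was 0.08 ± 0.20 (SE), with a 95% interval from -0.39 to 0.55. By fragments, Tkt-207 held 41.6%, 38.6% and 61.8% of Tkt in WT replicates 1 to 3. The annotated lengths enter both measures, and which ends the RNA of these kidneys had was not tested. In whole kidney, fewer cells of a type and less RNA per cell cannot be told apart.

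The summed levels of all 8 genes overlapped between WT and fat-1. The oxidative branch begins with G6pdx, the glucose-6-phosphate dehydrogenase of the cytosol (chrX:74409483-74429194). It measured 15.3, 13.7 and 11.7 FPKM in WT replicates 1 to 3 and 17.7, 11.9 and 16.2 FPKM in fat-1. The fat-1 libraries thus enclosed WT replicates 1 and 2, and the log2 difference was 0.15 ± 0.18 (SE). G6pd2, a gene related to G6pdx, was not among the listed genes and was not analysed here. Its reads could fall on G6pdx, which makes the G6pdx level uncertain, and whether they did was not tested. Pgls, the lactonase of the next step (chr8:71592176-71596269), measured 33.0, 30.3 and 40.1 FPKM in the WT libraries and 49.6, 33.2 and 40.1 FPKM in the fat-1 ones. Both groups reached 40 FPKM or more, and fat-1 replicate 1 was the highest library. The means were 34.4 ± 5.06 and 41.0 ± 8.23 FPKM (SD, n = 3 each).

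Pgd, 6-phosphogluconate dehydrogenase, makes the second NADPH and releases ribulose 5-phosphate (chr4:149149991-149166707). It measured 62.6, 55.7 and 53.8 FPKM in the WT libraries and 71.5, 47.3 and 49.5 FPKM in the fat-1 ones. The highest library and both of the lowest were fat-1, and the log2 difference was -0.05 ± 0.18 (SE). H6pd (chr4:149979475-150009023) measured 49.0, 50.9 and 40.5 FPKM in the WT libraries and 48.7, 59.2 and 51.5 FPKM in the fat-1 ones. Fat-1 replicates 2 and 3 lay above every WT library and fat-1 replicate 1 lay among them, and the log2 difference was 0.18 ± 0.14 (SE).

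In the non-oxidative branch, Rpia converts ribulose 5-phosphate to ribose 5-phosphate and Rpe converts it to xylulose 5-phosphate. Rpia (chr6:70765720-70792232) measured 9.56, 7.46 and 10.6 FPKM in the WT libraries and 10.4, 10.6 and 12.4 FPKM in the fat-1 ones. Fat-1 replicate 3 was highest and WT replicate 2 lowest, with the other libraries close together. Rpe (chr1:66700831-66719805) measured 14.7, 18.9 and 18.1 FPKM in the WT libraries and 14.2, 12.6 and 16.6 FPKM in the fat-1 ones. Fat-1 replicates 1 and 2 were below every WT library, and the log2 difference was -0.23 ± 0.15 (SE).

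Taldo1, transaldolase (chr7:141392199-141402968), was the highest of the 8 genes. It measured 149.5, 150.4 and 173.1 FPKM in the WT libraries and 150.2, 125.2 and 124.9 FPKM in the fat-1 ones. Fat-1 replicates 2 and 3 were the lowest libraries, and fat-1 replicate 1 lay between WT replicates 1 and 2. The means were 157.7 ± 13.4 and 133.4 ± 14.5 FPKM (SD, n = 3 each), and the log2 difference was -0.24 ± 0.13 (SE), with a 95% interval from -0.55 to 0.07. By length-weighted FPKM the WT libraries held 185.3, 184.9 and 214.6 and the fat-1 libraries 184.6, 153.9 and 154.9. All fat-1 values were lower on that scale, with fat-1 replicate 1 just under WT replicate 2, and the adjusted p was 0.632 in limma. The share of all genes without overlap was not counted on that scale, and in summed FPKM it was 15.2% of tested genes.

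**Figure D3:**
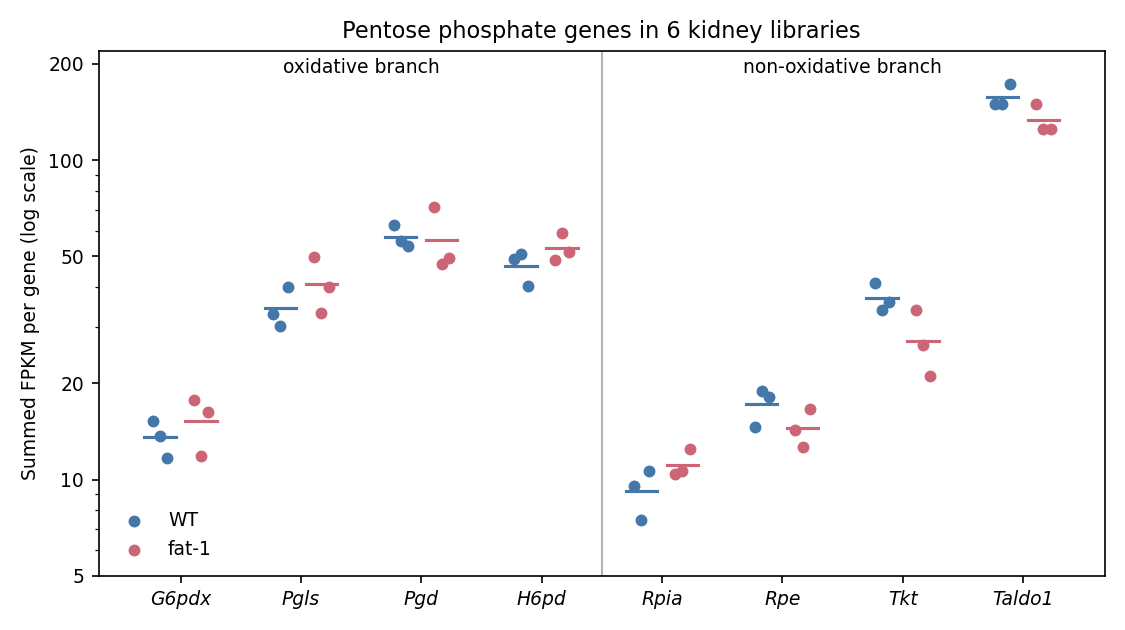
Summed FPKM (log axis) of the 8 pentose phosphate genes, with a point for each library and a line at each group's mean. In each gene the WT and fat-1 points overlap, and Taldo1 lies highest, between 124.9 and 173.1 FPKM.

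By mean FPKM over the 6 libraries, which is a level per length and can be set between genes, the order was Taldo1 (145.5), Pgd (56.8), H6pd (49.95), Pgls (37.7), Tkt (32.1), Rpe (15.9), G6pdx (14.4) and Rpia (10.2). Taldo1 lay above Pgd, and Tkt above Rpe, in ranges that did not overlap. All other neighbours in this order overlapped, and Pgd was above H6pd in 4 of 6 libraries. G6pdx was above Rpia in all 6, although their ranges over libraries overlapped. The enzyme that opens the oxidative branch was thus listed at a lower level than the enzymes that follow it, Pgls and Pgd.

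With Benjamini-Hochberg adjustment over the 11698 tested genes in limma, 0 of the 8 were under 0.05, where 21 of all genes (0.180%) were. By length-weighted FPKM the count was also 0 of 8, beside 0.0341% of all genes. Of the 8, 1 gene, Tkt, had an unadjusted p under 0.05, against 9.97% of all tested genes. Among the 8 differences 4 were positive and 4 negative, with a median of 0.05, against 0.01 over all tested genes. At the transcript level 13 of the 16 entries passed the filter, and 1 of them, Tkt-207, was called, against 10 of 17119 transcripts (0.0584%). At an unadjusted p under 0.05 the count was 3 of 13, beside 8.13%. Tkt-207 passed the filter through its WT values alone, so it had to differ, and nothing is read from its call. In limma with Benjamini-Hochberg adjustment its adjusted p was 0.0731 without fat-1 replicate 1 and 0.0682 without fat-1 replicate 3, so the call was lost there, and without any WT library the transcript missed the filter and was not tested. The 3 entries that failed the filter were G6pdx-203, H6pd-204 and Pgls-204. Groups did not overlap in 2 of the 13 tested transcripts, against 14.0% of all tested transcripts. In Tkt-201 fat-1 was higher, as in 7.40% of all, and in Tkt-207 lower, as in 6.60%. In gene sums the groups overlapped in all 8 genes, beside 15.2% of tested genes without overlap (8.33% higher and 6.86% lower in fat-1). Nothing in the labels ties each library to an animal of its own, and p-values measure only the spread between these samples, which may be technical.

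**Figure D4:**
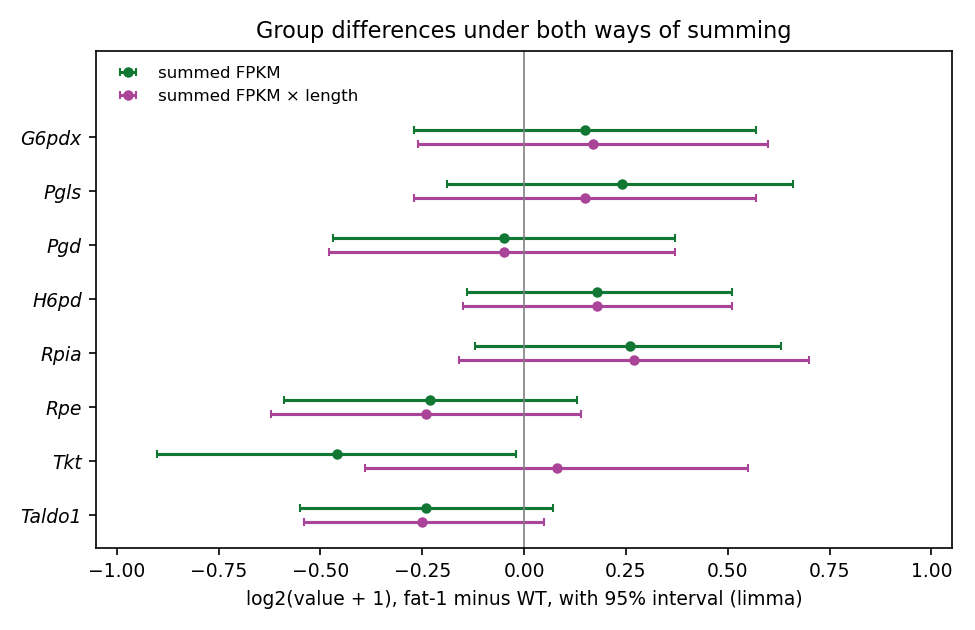
Log2 difference, fat-1 minus WT, of each of the 8 genes on the log2(value + 1) scale (points), with 95% intervals from limma (bars), for summed FPKM and for FPKM times length. The summed FPKM of Tkt gives -0.46 and its length-weighted FPKM gives 0.08.

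H6pd showed a wide swing between transcripts that did not follow the groups. Its main transcripts differ in their first exon, of 273 bases in H6pd-201 and 99 in H6pd-202, and share 4472 bases. They code for 797 and 789 residues. The junctions that tell them apart are shown with the last base of exon 1 and the first base of exon 2 in capitals (minus strand, chr4:149996381-150008751 and chr4:149996381-150003032).
H6pd-201, exons 1 and 2: gacgagcgagatgaAGcacacaggcatttg
H6pd-202, exons 1 and 2: tctttgcctgcactGGcacacaggcatttg
H6pd-201 took 83.8%, 6.63% and 29.9% of H6pd FPKM in WT replicates 1 to 3, and 28.6%, 86.9% and 3.82% in fat-1. H6pd-202 took 15.1%, 92.6% and 70.1% in WT, and 71.3%, 11.7% and 94.0% in fat-1. WT replicate 1 and fat-1 replicate 2 were on the side of H6pd-201 and the other 4 libraries on the side of H6pd-202. Within a group the share of a transcript thus ranged over 83.1 percentage points, while the summed H6pd level stayed between 40.5 and 59.2 FPKM. Among 3267 genes with 2 or more listed transcripts and a mean of at least 10 FPKM, that range was at the 96.4th percentile.

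The same measure was 42.2 points for Pgls (80.8th percentile) and 20.8 points for Tkt (63.3rd percentile), beside a median of 13.3 points over these genes. The Pgls range has WT replicate 1 at one end, and the Tkt range lies between WT replicates 2 and 3. The H6pd range lies within fat-1. Rpe had 12.2 points, Taldo1 8.52 points and G6pdx 5.13 points. The H6pd range within fat-1, 83.1 points, was wider than the 63.5 points between the group means of the Tkt-207 share. The first is a range and the second a difference of means, in different genes, and Tkt itself ranged over 20.8 points within a group. The H6pd shares overlapped between the groups and the Tkt shares did not. Tkt was chosen by these values, so nothing is read from that contrast, and 20.1% of genes with 2 or more transcripts had such shares. Whether reads were divided between the transcripts in the same way in each library was not tested.

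**Figure D5:**
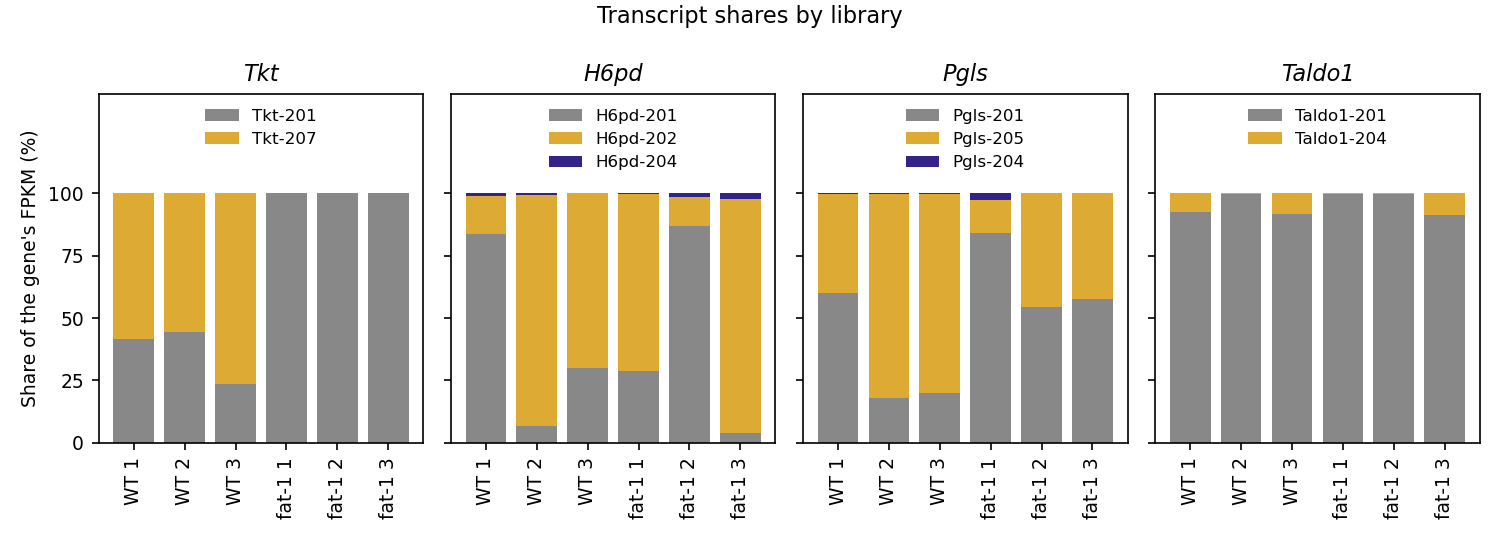
Share of the summed FPKM (percent, y axis) taken by each listed transcript of Tkt, H6pd, Pgls and Taldo1 in each library (stacked bars). The H6pd shares cross the groups and the Tkt shares do not, and Tkt was chosen by these values.

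Pgls has 2 main transcripts, which differ in their first exon. Pgls-201 codes for 257 residues and Pgls-205 for 174, and the first exon has 329 and 498 bases. Their annotated support levels are 1 and 3. The junctions are shown in the same way (plus strand, chr8:71592504-71594084 and chr8:71592788-71594084).
Pgls-201, exons 1 and 2: tacggcctctaccgGAcacacctgctctca
Pgls-205, exons 1 and 2: gggcctccgtccccCAcacacctgctctca
Pgls-201 measured 19.8, 5.39 and 7.94 FPKM in the WT libraries and 41.8, 18.2 and 23.0 FPKM in the fat-1 ones. WT replicate 1 lay among the fat-1 libraries and the other WT libraries lay below them. Pgls-205 measured 13.2, 24.8 and 32.0 FPKM in the WT libraries and 6.57, 15.1 and 17.0 FPKM in the fat-1 ones, again with WT replicate 1 among the fat-1 libraries. The log2 difference was 1.35 ± 0.51 (SE) for Pgls-201 and -0.82 ± 0.45 (SE) for Pgls-205. Pgls-205 held 39.9%, 82.1% and 79.8% of Pgls FPKM in WT and 13.2%, 45.4% and 42.5% in fat-1. The share in WT replicate 1, the library that stood apart, lay below those of fat-1 replicates 2 and 3, and those of the other WT libraries lay above every fat-1 library. Without WT replicate 1 the log2 difference was 1.84 for Pgls-201 and -1.17 for Pgls-205. Over all alternatives run it was 0.99 to 1.92 for Pgls-201 and -1.40 to -0.43 for Pgls-205. Neither was called in limma, with adjusted p of 0.577 and 0.748 over all 6 libraries. In the alternatives the adjusted p was at least 0.2485 for Pgls-201 and 0.4893 for Pgls-205. Pgls-204 stayed at or below 0.146 FPKM except for 1.27 FPKM in fat-1 replicate 1.

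Taldo1 had a main transcript of 8 exons (ENSMUST00000026576.4) and another of 9 exons (ENSMUST00000211654.1). Their annotated support levels are 1, the best grade, and 5, the weakest. The transcript of 9 exons adds a second exon of 135 bases (chr7:141395610-141395744), 45 codons in frame, and codes for 382 instead of 337 residues. The junctions into and out of that exon follow, with the capitals as before (plus strand, chr7:141392318-141396049, chr7:141392318-141395610 and chr7:141395744-141396049).
Taldo1 transcript of 8 exons, exons 1 and 2: cgggtgatttcaatGCcatcgatgaataca
Taldo1 transcript of 9 exons, exons 1 and 2: cgggtgatttcaatGGctgctttgtggcta
Taldo1 transcript of 9 exons, exons 2 and 3: acctgagagaaaaaGCcatcgatgaataca
The transcript of 9 exons measured 11.2, 0.589 and 14.2 FPKM in the WT libraries and 0.0943, 0.357 and 10.7 FPKM in the fat-1 ones. It was above 10 FPKM in WT replicates 1 and 3 and in fat-1 replicate 3 and below 1 FPKM in the others. Its share of Taldo1 reached at most 8.58%, so the transcript of 8 exons held most of the gene in every library. Rpe-202, with 235 instead of 228 residues and support level 3, was at 2.56 FPKM or less in all libraries and at 0 in fat-1 replicate 2. G6pdx-203 was at 0.908 FPKM or less. Pgd and Rpia each had 1 listed transcript.

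Genes that feed, drain or assist the pathway were taken from 7 lists of 93 genes, of which 86 were tested. Of these, 0 passed the adjusted threshold in limma, against 0.180% of all tested genes. The lists were chosen with earlier results of these data known, so their counts are a description and no test. At an unadjusted p under 0.05 there were 20 (23.3%), 15 higher and 5 lower in fat-1, beside 9.97% of all tested genes. The share by direction was not counted over all genes, and the median log2 difference over the 86 was 0.10. By list, that count was 4 of 16 for pentose entry and exit and phosphoribosyl pyrophosphate, 2 of 13 for glycolysis and gluconeogenesis, 4 of 13 for thiamine supply and thiamine enzymes, and 1 of 12 for other NADPH sources. It was 5 of 15 for NADPH users, 3 of 16 for NRF2 and its targets, and 2 of 5 for H6pd's neighbours in the endoplasmic reticulum. The transketolase-like genes Tktl1 and Tktl2 were not among the listed genes and were not analysed here.

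Of each list, genes among the 3 most abundant are named next. Akr1a1, an aldehyde reductase that makes gulonate from glucuronate, was at 882.3 ± 105.0 FPKM in the WT libraries and 759.2 ± 144.0 FPKM in the fat-1 ones (SD, n = 3 each). Sord, sorbitol dehydrogenase, was at 602.3 ± 67.7 and 617.0 ± 70.1 FPKM, and Cryl1, which acts on gulonate, at 120.6 ± 8.01 and 151.2 ± 27.1 FPKM. In glycolysis and gluconeogenesis, Fbp1, fructose-1,6-bisphosphatase, was at 491.5 ± 70.7 FPKM in the WT libraries and 681.9 ± 88.5 FPKM in the fat-1 ones, with a log2 difference of 0.47 ± 0.16 (SE). It did not pass, at adjusted p = 0.383 in limma. Gapdh, which takes up glyceraldehyde 3-phosphate made by transketolase, was at 389.8 ± 86.1 and 345.9 ± 45 FPKM.

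Of the enzymes that share the thiamine cofactor with transketolase, Pdha1 of the pyruvate dehydrogenase complex was at 188.4 ± 23.9 FPKM in the WT libraries and 225.8 ± 12.4 FPKM in the fat-1 ones. Ogdh, of the citric acid cycle, was at 119.4 ± 14.8 and 128.3 ± 15.9 FPKM, and Bckdha, of branched-chain amino acid breakdown, at 122.1 ± 14.0 and 141.7 ± 12.4 FPKM. The adjusted p of Pdha1 was 0.606 in limma. Chosen after their values were seen, the thiamine carriers of the plasma membrane Slc19a2 and Slc19a3 are given too. Slc19a3 was at 7.07, 6.73 and 4.22 FPKM in the WT libraries and 8.25, 9.06 and 10.5 FPKM in the fat-1 ones, and all fat-1 libraries were higher. It did not pass, at adjusted p = 0.4003 in limma, and Slc19a2 had adjusted p = 0.465.

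Of the 12 tested genes of other NADPH sources, 0 passed in limma and 1 had an unadjusted p under 0.05. Me1, malic enzyme, was at 177.1 ± 54.4 FPKM in the WT libraries and 174.7 ± 13.8 FPKM in the fat-1 ones, Idh1, the cytosolic isocitrate dehydrogenase, at 217.2 ± 13.4 and 224.9 ± 90.7 FPKM, and Idh2, the mitochondrial isocitrate dehydrogenase, at 148.6 ± 27.1 and 158.5 ± 23.3 FPKM. Among NADPH users, Por, which passes electrons to cytochromes P450, was at 97.6 ± 21.95 and 136.0 ± 7.66 FPKM, with a log2 difference of 0.50 ± 0.18 (SE) and adjusted p = 0.399 in limma. Cbr1, a carbonyl reductase, was at 58.3 ± 25.7 and 113.5 ± 67.9 FPKM. Cat, catalase, which binds NADPH, was at 336.6 ± 61.4 and 520.2 ± 63.0 FPKM, with a log2 difference of 0.63 ± 0.17 (SE) and adjusted p = 0.249 in limma. The fat-1 values of these users were higher in the mean, and none passed the test.

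Among NRF2 targets, the ferritin chains Fth1 and Ftl1 were at 2620 ± 328.0 and 795.0 ± 34.1 FPKM in the WT libraries and at 3137 ± 385.4 and 746.3 ± 128.8 FPKM in the fat-1 ones. Gstm1, a glutathione transferase, was at 176.1 ± 38.5 and 272.6 ± 51.9 FPKM, with adjusted p = 0.356 in limma. Among those neighbours of H6pd, Slc37a4, which carries glucose 6-phosphate into the endoplasmic reticulum, was at 66.0 ± 5.95 and 82.0 ± 9.29 FPKM. G6pc, which consumes it there, was at 153.0 ± 13.1 and 232.0 ± 51.4 FPKM, with a log2 difference of 0.58 ± 0.19 (SE) and adjusted p = 0.354 in limma. Hsd11b2, a steroid dehydrogenase of the distal nephron that uses NAD and not the NADPH of H6pd, stands in the list beside Hsd11b1 and was at 49.0 ± 3.34 and 49.6 ± 8.84 FPKM. Hsd11b1, which uses that NADPH, was at 40.7 ± 7.43 and 47.3 ± 3.11 FPKM, with a log2 difference of 0.23 ± 0.15 (SE), and was added after its values were seen. G6pc3, the remaining gene of this list, was also added then and was at 30.9 ± 1.79 and 18.0 ± 7.06 FPKM. Its log2 difference was -0.81 ± 0.26 (SE), with adjusted p = 0.333 in limma. The 2 genes of this list at an unadjusted p under 0.05, G6pc and G6pc3, thus went in opposite directions.

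The libraries carried kidney markers throughout, and their summed FPKM lay between 387488 and 431081, with 12.1% to 16.7% from mitochondrially encoded genes. The 6 proximal tubule markers summed to 1551 to 1903 FPKM in the WT libraries and 1224 to 1933 FPKM in the fat-1 ones. The 5 proximal tubule S3 markers summed to 1286 to 2028 FPKM in WT and 1311 to 1681 FPKM in fat-1. Of the S3 markers 0 passed the adjusted threshold in limma, and 2 had an unadjusted p under 0.05, Slc5a1 higher and Slc7a13 lower in fat-1. The 6 endothelial markers summed to 63.5 to 75.9 FPKM in the WT libraries and 137.6 to 190.9 FPKM in the fat-1 ones, with 1 (Plvap) passing the adjusted threshold. The 4 distal convoluted tubule markers summed to 297.7 to 447.2 FPKM in the WT libraries and 165.1 to 257.8 FPKM in the fat-1 ones, with 0 passing and 2 at an unadjusted p under 0.05 in limma. The 4 podocyte markers summed to 57.3 to 66.6 FPKM in the WT libraries and 81.0 to 99.5 FPKM in the fat-1 ones, with 0 passing and 3 at that unadjusted p. The 4 intercalated cell markers summed to 84.1 to 85.2 FPKM in WT and 57.7 to 67.6 FPKM in fat-1. Of these, 0 passed and 2 were at that unadjusted p. The 4 fibroblast markers summed to 34.6 to 76.1 FPKM in WT and 33.9 to 51.8 FPKM in fat-1, with 0 passing. At that unadjusted p were 3 fibroblast markers, Col1a1 and Col3a1 lower and Pdgfrb higher in fat-1. The 3 listed adipocyte markers summed to 35.2 to 60.5 FPKM in WT and 82.2 to 113.2 FPKM in fat-1. Only 1 of them, Fabp4, was tested, and it was at that unadjusted p but did not pass. Fabp4 alone held 35.15 to 54.84 FPKM in WT and 81.87 to 112.8 FPKM in fat-1, most of that sum. The difference between the sums is thus mostly that of Fabp4, and the other listed adipocyte markers did not pass the filter. The 4 erythrocyte markers summed to 130.6 to 234.8 FPKM in WT and to 7.05 to 533.1 FPKM in fat-1, with 0 passing in limma and 0 at that unadjusted p, and the 5 macrophage markers likewise had 0 and 0. The lists of thick ascending limb, principal cell and lymphocyte markers are not reported here. The part of cell type markers in the pathway's values was not tested.

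The genes whose summed levels followed Tkt most closely in summed FPKM over the 6 libraries, among 5370 genes with a mean of at least 10 FPKM, were Pdzk1ip1 (Pearson r = 0.988), Gsr (r = 0.983) and Rhoc (r = 0.977), with Spearman's rho of 1, 0.943 and 1. Leaving out the 2 libraries farthest from the median of Tkt, r was 0.927, 0.878 and 0.946. This likeness depended on the measure of Tkt: by length-weighted FPKM the same genes had r = 0.462, 0.618 and 0.395 with Tkt and ranked 743, 333 and 957 among 4858 genes. For G6pdx, in summed FPKM, they were Gipc1 (r = 0.973), Col18a1 (r = 0.965) and C330007P06Rik (r = 0.963), with rho of 0.943, 0.943 and 0.886. These are the 3 highest of the 5370 values computed over 6 libraries that share normalization and the WT and fat-1 groups, and they are given as a description.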

How the data were processed

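Kidney total RNA of 24-month-old mice gave 6 libraries, 3 WT and 3 fat-1. The authors' deposited tables give FPKM per protein-coding transcript, and the build was mm10, per the submitters' processing notes. Those notes name the tools featureCounts 1.5.0-p3, DESeq2 1.20.0 and HISAT2 2.0.5. Which tool made the FPKM, and how it divided reads between transcripts, is not given in the sources here. The lowest maximum over libraries of a listed transcript is 0.5 FPKM, so sums leave out lower transcripts. Depth is unknown, so no counting intervals are given.

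FPKM was summed per gene identifier (13696 genes). A name table held 13670 of the identifiers. Group differences (fat-1 minus WT) are in log2(FPKM + 1), which understates changes of low genes, and come from limma 3.58.1 in R 4.3.3 with an intensity trend and robust estimation. Features reaching 1 FPKM in 3 or more libraries were kept, 11698 genes and 17119 transcripts, and p-values were adjusted by Benjamini-Hochberg over each. Transcript structures and sequences came from GENCODE M21 on mm10, whose coordinates were identical for 100% of the 26113 shared transcript identifiers. Lengths were found for 95.0% of transcripts.

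The genes and lists were chosen with earlier results of these data known. Named genes are the 8 enzymes and their transcripts, the 3 most abundant of each related list and any called there, and the 3 most like Tkt or G6pdx. Some genes named by this rule are not reported here. Alternatives covered scaling, pseudocount, filters, robust estimation and each replicate left out. Length-weighted FPKM and the fit without 2 libraries were added after seeing the data. Tables and plots were made with pandas 2.3.3 and matplotlib 3.10.9 in Python 3.11.15.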

Additional observations from a re-analysis of the deposited data

How the results depend on the processing

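No paired analysis was possible because the sample titles of WT and fat-1 share no number, and the fat-1 replicate numbers used here follow accession order only. In limma, 0 of the 8 pentose phosphate genes and 0 of the 86 tested related genes were called under every alternative run, and between 0 and 2 of the 8 had an unadjusted p under 0.05. Over all genes the 21 calls became 11 with upper-quartile scaling, 8 with median-of-ratios scaling, 33 without mitochondrially encoded genes, 34 with quantile normalization, 4 without a filter, 42 at 5 FPKM or more and 4 by length-weighted FPKM. Leaving out 1 library gave 0 to 25 gene calls: 25 without WT replicate 1, 1 without WT replicate 2 or fat-1 replicate 2, and 0 without WT replicate 3 (831 genes at an unadjusted p under 0.05), without fat-1 replicate 1 (1005) and without fat-1 replicate 3 (1059). The 10 transcript calls became 3 at 5 FPKM or more and 0 to 3 with 1 library left out, 3 without fat-1 replicate 2 and 0 without any other, where 1039 to 1569 transcripts had an unadjusted p under 0.05. Without WT replicate 1 and fat-1 replicate 3, the libraries with the lowest mitochondrial share, 0 genes (1389 at an unadjusted p under 0.05), 0 transcripts (1207) and 0 pentose phosphate transcripts (4) were called. The call of Tkt-207 ranged from 0 to 1 with 1 library left out: it held without fat-1 replicate 2, adjusted p was 0.0731 without fat-1 replicate 1 and 0.0682 without fat-1 replicate 3, and without any WT library the transcript missed the filter. Its FPKM values are the same in each case. The share of Tkt-207, fat-1 minus WT, was -63.5 points, -47.3 points by length-weighted FPKM, and -67.5 to -57.1 points with 1 library left out. The Tkt log2 difference was -0.63 to -0.22 in FPKM and 0.08 by length-weighted FPKM. Pgd changed sign in 4 alternatives, and H6pd-201 ranged from -1.01 to 1.89. Depth is unknown, so the precision of a listed 0 cannot be given.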
